A study of Mus musculus with 4 samples.

Results

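The Hedgehog pathway genes described here are 9 genes with probe sets of their own on a mouse expression array: the ligands Ihh and Shh, the receptor Ptch1, the ligand-binding decoy Hhip, the transducer Smo, the inhibitor Sufu and the transcription factors Gli1, Gli2 and Gli3. All probe sets annotated to exactly 1 gene, that gene being a member, were taken, which gave 22 probe sets for 9 of the 18193 genes on the array. The genes were picked by symbol with earlier results of these arrays known, the low Smo signal with Cre among them, so their genotype differences are given as a description. The arrays came from a mouse model of acute colitis. Every sample was homozygous for a floxed Stat3 allele (Stat3flfl) and came after 5 days on 2.5% dextran sodium sulphate (DSS) in the drinking water, an agent that injures the colon lining. The Cre-negative group (VillinCre-, 2 biological replicates) had no Cre, and the Cre-positive group (VillinCre+, 2 biological replicates) carried Cre under the villin promoter, known to drive expression in gut epithelium but not in the mesenchyme beneath it. Total RNA of colon epithelium was hybridised to 1 array per replicate. Open points are whether a replicate was 1 animal or a pool, how the epithelium was isolated, and the animals' age and sex: the sources used here give none of these. Undamaged colon was not analysed here, so every value is from inflamed tissue.

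Hedgehog ligands are secreted, lipid-modified proteins. In the absence of ligand Ptch1 keeps Smo inactive, and Sufu holds the Gli proteins back. Ligand binding to Ptch1 releases Smo, and activated Gli proteins switch on target genes, among them Gli1, Ptch1 and Hhip themselves. In the gut the ligands come mainly from the epithelium, Ihh from mature colonocytes, and the responding cells are largely fibroblasts, smooth muscle and other mesenchymal cells beneath it.

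Values are GC-RMA intensities, a background-corrected and between-array normalised brightness per probe set, and each difference is a log2 value, the Cre-positive mean less the Cre-negative mean. A probe set's brightness depends on its own sequence, so levels were compared between arrays and not between probe sets. Transcripts without a clear signal pile up at the bottom of this scale. Ranked by mean over the arrays, probe sets reached an intensity of 6.99 at the 40th percentile and 24.4 at the 60th, and the median of each array lay between 9.14 and 9.42. The brightest Stat3 probe set measured log2 10.46 and 10.49 in the Cre-negative arrays and 9.28 and 8.16 in the Cre-positive ones. A second Stat3 probe set went the same way (-1.57), another went the other way (1.29) and one lay at the bottom of the scale. Whether any of these lies in the deleted part is not given in the sources used here. Over the 12659 genes tested, arrays correlated pairwise at 0.981 to 0.994, lowest for Cre-positive array 1. The highest value was between Cre-negative array 2 and Cre-positive array 2 (0.99415). The Cre-negative pair stood at 0.99384 and the Cre-positive pair at 0.98424, so the arrays did not group by genotype. The ratio of 3-prime to 5-prime signal, a sign of RNA quality, ranged from 1.27 to 1.42 by the Actb probe sets and from 0.782 to 0.992 by the Gapdh ones.

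Some members had signal in these samples and others lay at the bottom of the scale. Ihh, Shh, Ptch1, Smo, Sufu and Gli2 (6 of 9 genes) each had at least 1 probe set with a mean above the 60th percentile, 7 probe sets in all. Gli1, Gli3 and Hhip had none. Over the whole array 9726 of 18193 genes had such a probe set, and which cells gave the members' signal was not tested. The 15 other probe sets of the members lay between intensities of 3.85 and 8.15 in all 4 arrays, under the array medians. Smo was the one member with a large genotype difference. It was lower in both Cre-positive arrays by 2 probe sets, while the Ihh, Ptch1 and Sufu differences were smaller than the spread between replicates.

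**Figure D1:**
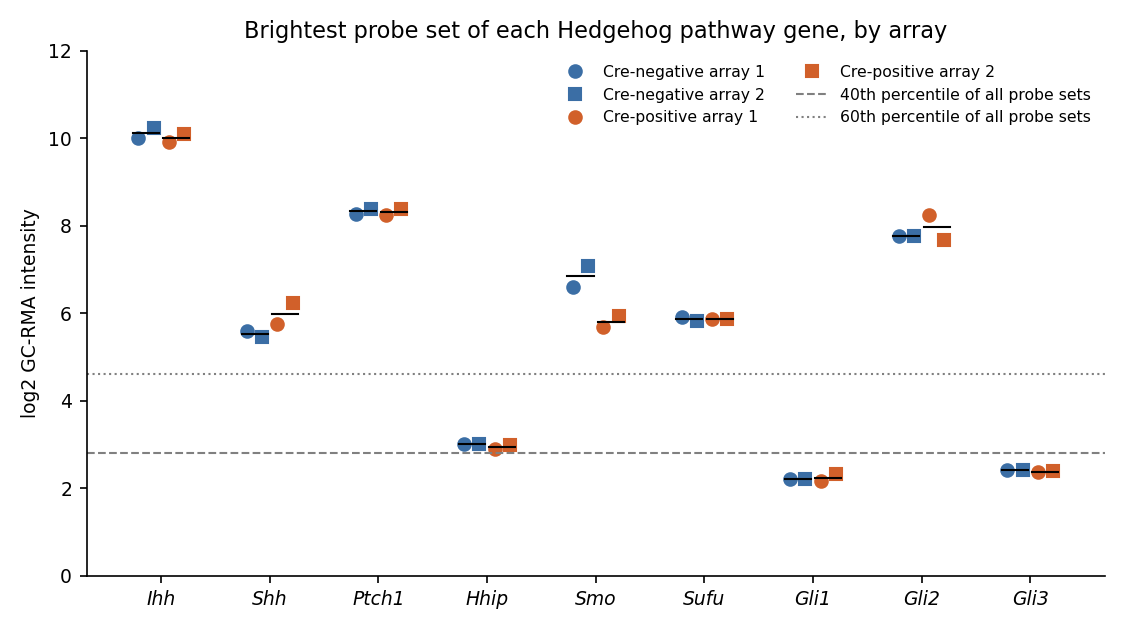
Log2 GC-RMA intensity of the brightest probe set of each of the 9 genes, with 1 point per array (circles array 1, squares array 2), group means as short black lines and the 40th and 60th percentiles of all probe sets as grey lines. Gli1 and Gli3 lie under the lower line and Hhip just above it, Smo is lower in both Cre-positive arrays, and heights are not comparable between genes.

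Ihh, Indian hedgehog, the ligand of mature colonocytes, gave a bright signal in every array. Its single probe set (1450704_at) read 1025 and 1210 in the Cre-negative arrays and 970.2 and 1096 in the Cre-positive arrays. The groups overlapped, with Cre-positive array 2 between the Cre-negative arrays. The means were log2 10.12 ± 0.17 and 10.01 ± 0.12 (SD, n = 2 per group). The difference of -0.11 (SE 0.14) was smaller than the spread between replicates (limma adjusted p = 0.737 over all genes). Its 95% interval reached from 1.44-fold lower to 1.23-fold higher, so a change of that size is not shown to be absent. Without Cre-negative array 2 the difference was 0.0081.

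Shh, Sonic hedgehog, a ligand made by crypt epithelium, had 1 probe set with signal (1436869_at) and 1 at the bottom of the scale. The first read 48.3 and 44.0 in the Cre-negative arrays and 53.6 and 75.1 in the Cre-positive arrays. Both Cre-positive values were higher than both Cre-negative ones, and Cre-positive array 2 was the one that stood apart. The means were log2 5.53 ± 0.10 and 5.99 ± 0.34 (SD, n = 2 per group). The difference of 0.46 (SE 0.22) did not pass (limma adjusted p = 0.528). It was 0.22 when Cre-positive array 2 was left out and 0.70 when Cre-positive array 1 was. The dim Shh probe set read 5.33 to 5.50 and differed by -0.03, so only 1 probe set carried the higher Shh value.

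Ptch1, the ligand receptor and itself a Hedgehog target gene, was measured by 3 probe sets, of which 1 (1428853_at) had signal. That probe set read 310.5 and 334.7 in the Cre-negative arrays against 302.1 and 331.2 in the Cre-positive arrays. The values interleave between the groups. Its difference was -0.03 (SE 0.14, limma adjusted p = 0.941), with a 95% interval from 1.34-fold lower to 1.29-fold higher. The sign turned when Cre-negative array 2 was left out (0.03) or Cre-positive array 1 was (0.04). The other 2 Ptch1 probe sets lay between 4.14 and 4.45.

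Hhip, a membrane protein that binds Hedgehog ligands and keeps them from Ptch1, was at the bottom of the scale by all 4 of its probe sets, between 4.16 and 8.10. Its brightest one (1438083_at) read 8.10 and 8.06 without Cre and 7.49 and 7.92 with Cre. The groups did not overlap, but the difference was -0.07 (SE 0.04, limma adjusted p = 0.538) and lies in the band where most probe sets shift the same way. Of the 27058 probe sets of the whole array with means up to the 60th percentile, 85.0% were lower with Cre (median difference -0.04), against 58.2% of the brighter ones. The 15 dim probe sets of the members did likewise: 12 were lower and 3 higher, with differences from -0.08 to 0.03.

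Smo, Smoothened, the seven-pass membrane protein that carries the signal across the membrane once Ptch1 releases it, was lower with Cre. The brightest of its 3 probe sets (1427049_s_at) read 97.7 and 135.7 in the Cre-negative arrays and 51.2 and 60.9 in the Cre-positive arrays. Every Cre-positive value was under every Cre-negative value, with a gap between 60.9 and 97.7. The means were log2 6.85 ± 0.34 and 5.80 ± 0.18 (SD, n = 2 per group). This 2.06-fold difference of -1.04 (SE 0.25) missed the threshold of 0.05 (limma adjusted p = 0.320 over 12659 genes). Of all genes tested, 67, or 0.529%, had a difference of -1 or lower.

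A second Smo probe set (1427048_at) gave nearly the same picture. It read 53.4 and 73.0 without Cre and 31.1 and 26.3 with Cre, again without overlap. The means were log2 5.96 ± 0.32 and 4.84 ± 0.17 (SD, n = 2 per group), a difference of -1.13 (SE 0.23). Its limma adjusted p was 0.0695 in the fit over all 45037 probe sets, where 0% were called. In that fit 14888 probe sets were lower and 972 higher at an unadjusted p under 0.05. The limma adjusted p of this probe set was 0.615 with the arrays centred on their medians and 0.306 with the filter at the 40th percentile. The 2 Smo probe sets with signal were designed from the same sequence record, so they are not independent measurements of the transcript. The s in the name of the brighter one marks probes that can bind more than 1 transcript. The arrays did not keep the same order in both: Cre-positive array 1 was the lower of its group by the first and array 2 by the second. The third probe set (1442215_at) stayed among the dim ones in each array, at 6.89 to 7.37. In the authors' deposited table the folds of the 3 probe sets are 2.06, 2.18 and 1.05, with p-values of 0.06, 0.0481 and 0.0935. Leaving out 1 array at a time moved the difference of the brightest probe set between -1.28 and -0.81.

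**Figure D2:**
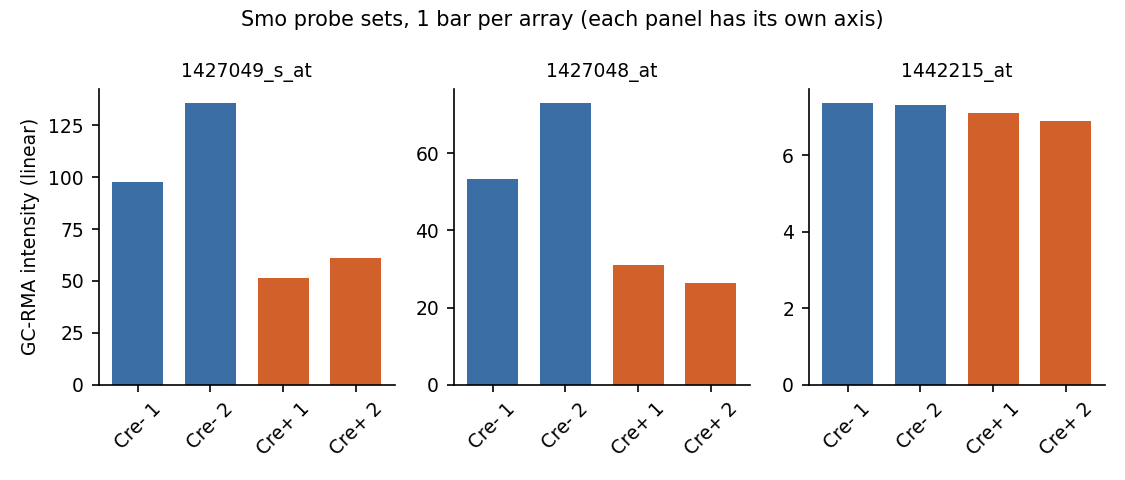
GC-RMA intensity (linear scale, from 0) of the 3 Smo probe sets in each array, with 1 bar per array and a separate axis per panel. In the 2 panels with signal the Cre-positive bars stand under both Cre-negative bars, and the third panel stays between 6.89 and 7.37.

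To let a reader see the sequence in front of the member with the largest difference, the 250 bases upstream of the Smo start are shown in lower case. They come from RefSeq, build GRCm38.p6, chr6:29735247-29735496, plus strand, and 68.4% of them are G or C.
Smo upstream: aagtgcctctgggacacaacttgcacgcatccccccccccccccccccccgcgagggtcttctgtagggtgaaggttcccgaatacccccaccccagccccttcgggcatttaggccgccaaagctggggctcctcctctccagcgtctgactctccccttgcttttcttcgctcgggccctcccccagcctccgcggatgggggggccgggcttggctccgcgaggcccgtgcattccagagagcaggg
The letters TTCNNNGAA, a core that STAT proteins are known to bind, and GACCACCCA, the Gli consensus, were searched on both strands of the 300-base windows from 250 bases before to 50 after each start. Of 32851 windows, 8.30% held the first and 0.253% the second. Of the 7 members with a window (Ihh, Ptch1, Hhip, Smo, Sufu, Gli2 and Gli3), 0 held either. Shh and Gli1 were not matched. This says only that these letters are not in these windows.

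Sufu, which binds Gli proteins and holds them in the cytoplasm, was the steadiest member with signal. Its brightest probe set (1450024_at) read 60.3 and 56.5 without Cre and 58.8 and 58.5 with Cre. Both Cre-positive values lay between the Cre-negative ones. The difference was 0.01 (SE 0.13, limma adjusted p = 0.985), with a 95% interval from 1.30-fold lower to 1.31-fold higher, and was -0.04 without Cre-negative array 2. The other 2 Sufu probe sets lay between 4.41 and 5.78.

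Among the transcription factors, Gli2 alone had a probe set with signal. Gli2 is the main activator of the pathway's first response. Its probe set 1459211_at read 219.1 and 217.9 in the Cre-negative arrays and 302.5 and 204.9 in the Cre-positive arrays. One Cre-positive array was thus the highest of the 4 and the other the lowest. The means were log2 7.77 ± 0.01 and 7.96 ± 0.40 (SD, n = 2 per group), a difference of 0.19 (SE 0.25, limma adjusted p = 0.746). It was 0.47 when Cre-positive array 2 was left out and -0.09 when Cre-positive array 1, the array least like the others, was left out. A second Gli2 probe set, designed from the same sequence record, stayed at 7.64 to 8.15, so the 2 probe sets give different pictures of Gli2.

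Gli1, an activator that is itself switched on by the pathway and is widely used as its readout, lay at the bottom of the scale. Its single probe set (1449058_at) read 4.64 and 4.61 without Cre and 4.48 and 5.00 with Cre. Gli3, the main repressor form of the family, lay there by all 3 of its probe sets, at 3.85 to 5.36. Neither gene passed the filter on dim genes, and no difference is read from them.

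**Figure D3:**
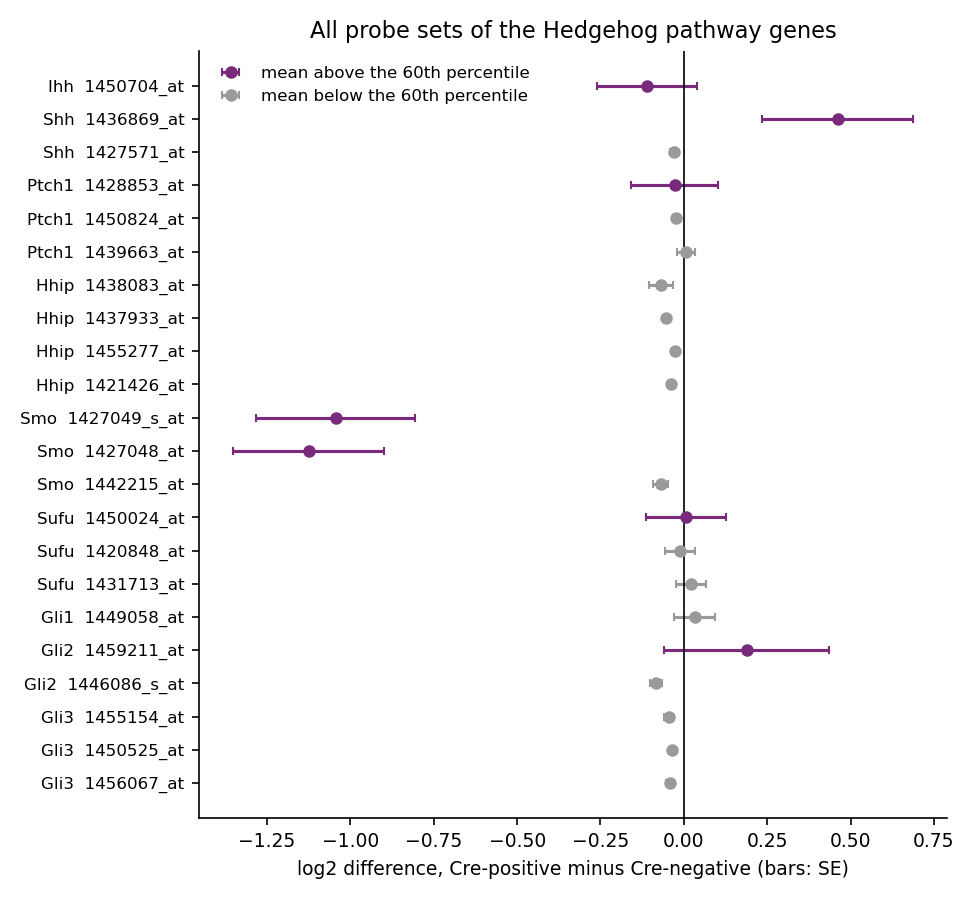
Log2 difference (Cre-positive minus Cre-negative) of all 22 probe sets of the 9 genes, with bars of 1 SE from limma, in purple where the mean lies above the 60th percentile of all probe sets and grey where it lies below. The 2 Smo probe sets with signal lie at -1.04 and -1.13, and all grey points lie between -0.08 and 0.03.

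Counted together, 7 of the 9 members passed the filter, 3 with a higher and 4 with a lower mean in the Cre-positive group. Their median difference was -0.03, against -0.05 over all genes tested. Limma called 0 of the 7 after adjustment, as it called 0% of all genes (smallest adjusted p = 0.244). At an unadjusted p under 0.05, 1 member was lower (Smo) and 0 were higher, beside 8.51% lower and 2.54% higher among all genes (1077 and 322, or 610 and 329 with the arrays centred on their medians). The groups did not overlap in 2 members that were lower (Smo and Hhip) and 1 that was higher (Shh), beside 34.7% and 13.5% of all genes. The contrast was known when the members were picked, so nothing is read from these counts. With 2 arrays a side, 0.333 is the smallest two-sided p an exact permutation test can reach.

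The wider pathway was read from 55 further genes in 4 lists, of which 52 had a probe set and 37 passed the filter. Limma called 0 of them. Of the 37, 16 were higher and 21 lower, with a median of -0.02. Unadjusted, 1 was higher and 3 lower, and 4 higher (10.8%) and 15 lower (40.5%) had separate groups, to be read beside the shares over all genes above.

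The genes that make and release the ligands were dim throughout: 7 of 7 had means under the 60th percentile. Hhat, which attaches palmitate to the ligands, went from log2 4.08 and 4.08 to 3.98 and 3.77 (-0.21), and Disp1, which releases them from the cell, from 3.94 and 4.34 to 3.63 and 4.26 (-0.20, groups overlapping). Dhh, the third ligand of the family, lay at the bottom. Among the other receptors and co-receptors 3 had signal: Boc and Cdon, which help Ptch1 bind ligand, and Gpc4, a glypican. Boc measured 7.35 and 7.60 without Cre and 7.43 and 8.20 with Cre (0.34), and Cdon 5.68 and 5.50 against 5.07 and 5.63 (-0.24). Gpc4 differed by 0.21, and in all 3 the groups overlapped. Gas1, another co-receptor, was at the bottom of the scale.

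Genes that act between Smo and the Gli proteins were mostly well measured, 14 of 23 above the 60th percentile, with a median difference of -0.0036 among the 17 tested. Dyrk2, a kinase reported to act on Gli2, had the largest difference among them, with log2 11.06 and 10.74 without Cre against 11.67 and 11.34 with Cre. That difference of 0.60 (SE 0.19) did not pass (limma adjusted p = 0.424), and 1 of its 4 probe sets above the filter went the other way. Arrb2, a beta-arrestin that binds Smo, was dim and higher only in Cre-positive array 1 (5.06, against 4.25 to 4.34 in the other arrays). The kinesin gene Kif7 and the ciliary genes Evc and Evc2, which take part in Smo signalling at the primary cilium, lay at the bottom of the scale. Other cilium genes of the list did not. Ift172 measured log2 9.27 and 9.01 without Cre and 9.75 and 9.03 with Cre, and Kif3a 5.45 and 5.54 against 5.43 and 5.41. Ift88 (4.54 to 4.63) and Tulp3 (3.12 to 3.14) passed the filter but had means under the 60th percentile.

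Target genes of the pathway were likewise split between dim and bright. Bmp4, Foxf1 and Foxl1, targets in the gut mesenchyme, did not pass the filter, with log2 values from 1.90 to 2.63. Ccnd1, a cyclin that many other signals also drive, was lower with Cre at log2 10.09 and 9.94 against 10.45 and 10.43. Its difference of -0.43 (SE 0.10) did not pass (limma adjusted p = 0.332). Ccnd2, a related cyclin, had the opposite sign: 12.29 and 11.88 with Cre against 11.63 and 11.21 without, a difference of 0.67 (SE 0.23, limma adjusted p = 0.457). All probe sets above the filter of Ccnd1 (3) and of Ccnd2 (7) shared those signs. Foxf2 (-0.08), Snai2 (-0.21) and Bmp7 (0.58) were dim, with values from 2.80 to 3.98.

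**Figure D4:**
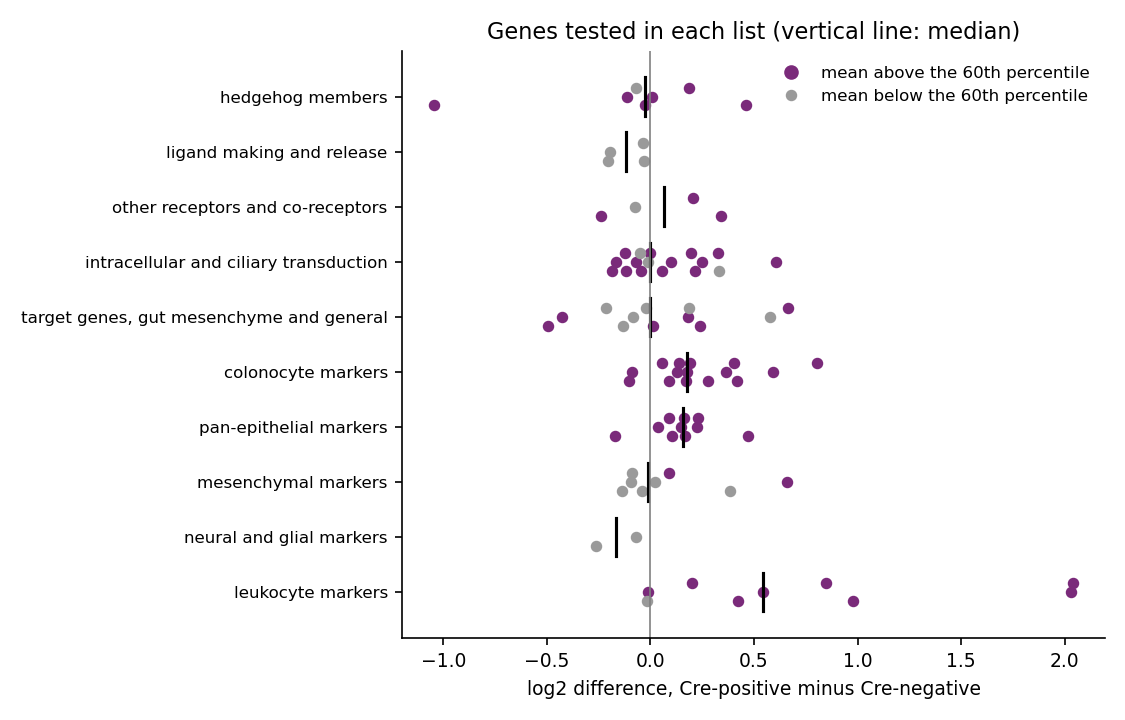
Log2 difference (Cre-positive minus Cre-negative) of each gene tested, by list, in purple where its mean lies above the 60th percentile of all probe sets and grey where it lies below, with the list median as a black line. Smo at -1.04 is the lowest point of all lists, the leukocyte markers S100a8 and S100a9 the highest, and no endothelial marker passed the filter.

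The cell types in the samples bear on where the members can be expressed, and in bulk RNA fewer cells of a type and less RNA per cell cannot be told apart. Levels are not compared between probe sets, so no share of a cell type is read here. All 10 pan-epithelial markers were bright, with Krt19 and Lgals4 near log2 15 in every array (14.92 to 15.18). Their median difference was 0.16, with 9 of 10 higher with Cre, and Cdx2 had the largest at 0.47 with overlapping groups. Colonocyte markers, the cells that make Ihh, had a median of 0.18 (13 of 15 higher), among them Slc9a3 (0.81, with 1 of its 2 probe sets the other way) and Muc3 (0.59), while the brightest, Car1 and Lypd8, differed by 0.13 and 0.14. Limma called 0 of these 25 genes.

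Markers of the cells that usually respond to Hedgehog ligands mostly lay low on the scale. Of 16 mesenchymal markers 14 lay under the 60th percentile, among them the defining collagens Col1a1, Col1a2 and Col3a1 and the smooth muscle genes Acta2, Myh11, Des and Tagln. These 14 summed to intensities of 109.9 to 111.3 without Cre and 110.7 to 111.3 with Cre. Sums this near the bottom of the scale do not measure how much mesenchymal RNA was present. With the other 2 included, the whole list summed to 452.1 to 489.4 and 529.1 to 773.1. The 2 with signal were Vim, which leukocytes also express (8.83 and 8.50 with Cre, a difference of 0.66 with SE 0.17), and Pdgfrb (6.90 and 6.44 against 7.69 and 5.82). Among the dim ones Thy1 differed by 0.38 (SE 0.05, limma adjusted p = 0.244) and Myh11, from smooth muscle, by -0.14. Which cells the Thy1 difference came from was not tested. The list's median difference was -0.01 (4 higher and 4 lower of 8 tested), and limma called 0 of them.

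All 6 endothelial markers and all 5 neural and glial markers with a probe set lay under the 60th percentile, with Sox10 (-0.26) and Elavl4 (-0.07) the 2 tested. Leukocyte markers were higher in 7 of 9, with a median of 0.54. Ptprc, the pan-leukocyte antigen CD45, measured 7.19 and 7.40 without Cre and 8.31 and 8.24 with Cre, and Lyz2 8.43 and 7.39 with Cre, a difference of 0.85. The neutrophil genes S100a8 and S100a9 stood at 9.70 and 9.46 in Cre-positive array 1 against at most 5.91 in the others. The leukocyte markers summed to intensities of 615.0 and 651.7 without Cre and 2469 and 942.3 with Cre. Most of the 2469 came from S100a8 and S100a9, so these sums do not measure how much leukocyte RNA was present. The share of leukocytes in the Smo, Gli2 and Shh differences was not tested.

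The genes whose 4 values ran most like those of Smo were Cnnm2, Smc6 and Pkia, at root mean square distances of 0.107, 0.113 and 0.127 on the log2 scale over 4 arrays, each gene centred on its own mean. Cnnm2, the nearest, was dim, at log2 3.76 and 4.42 without Cre and at most 3.02 with Cre. Smc6 read log2 8.82 and 9.32 without Cre and 8.17 and 8.17 with Cre, and Pkia 5.89 and 6.10 against 4.94 and 4.94. No gene lay within 0.1 of Smo. For Ihh, whose values hardly moved, 1456 genes lay within 0.1, the nearest being C1qtnf4 (0.0121), Dazap2 (0.0162) and Mbp (0.0173), so likeness to Ihh sets few genes apart.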

How the data were processed

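The deposited intensity values were made by the authors with GC-RMA, per the submitters' processing notes, and are linear. Another deposited table holds these intensity values rounded, log2 values relative to the Cre-negative mean, a fold (ratio) and a p-value per probe set, from ArrayAssist per the file headers. Which test gave the authors' p-values is not given in the sources used here. Rounded values lay within 0.5 of the unrounded ones.

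Of 45101 probe sets, 64 were controls, 34945 had 1 gene, 932 several and 9160 none in the annotation used. Symbols were updated by gene identifier (34741 matched the GRCm38.p6 gene table). For each gene the probe set with the highest mean was used, above the 40th percentile, and limma 3.58.1 (R 4.3.3) tested the log2 intensities (linear model and eBayes with trend, two-sided, Benjamini-Hochberg over 12659 genes, threshold 0.05). A second fit covered all 45037 probe sets but controls. There were 2 residual degrees of freedom plus 1.58 from the variance prior, and the number of arrays limits the precision. The fit was tested on simulated data.

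The members and lists were chosen with earlier results of these data known. Besides the members, genes were named by rule: Stat3; in each pathway list those at an unadjusted p under 0.05 and the 2 largest differences; in each marker list the 2 largest differences and the 2 highest means; and the 3 nearest patterns. Dhh, Gas1, Kif7, Evc, Evc2, Gpc4, Bmp4, Foxf1, Foxl1 and the mesenchymal markers at the bottom of the scale were named after their values were seen. The same holds for Ift172, Kif3a, Ift88 and Tulp3. The alternatives were the filter, the probe set rule, the scaling, the trend, a pseudocount of 16, a replicate block and leaving out each array.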

Additional observations from a re-analysis of the deposited data

How the results depend on the processing

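The direction of the Smo difference held in all 11 alternatives (-1.28 to -0.75, the smallest being the mean of its 3 probe sets) and that of its second probe set in all 8 (-1.35 to -0.90). In none of them was it past the threshold (adjusted p = 0.0809 to 0.734 and 0.120 to 0.615). Limma called 0 members over genes in every setting. Shh (0.22 to 0.70) and Hhip (-0.11 to -0.023) kept their signs. The groups of Smo, Shh and Hhip did not overlap, so leaving out 1 array could not turn the sign of these genes. The filter, the trend and the replicate block leave the difference itself unchanged. The kept signs of Smo, Shh and Hhip therefore add no support. Leaving out single arrays turned Ihh (-0.23 to 0.0081), Ptch1 (-0.093 to 0.039), Sufu (-0.040 to 0.054) and Gli2 (-0.093 to 0.47). The groups of these genes overlapped, so leaving out 1 array could turn the sign. Why the replicates differed was not tested. Over all genes 0 were called in every setting. Over all probe sets 0 to 855 were called when 1 array was left out: 855 without Cre-positive array 2, 11 without Cre-positive array 1, no member among them. These fits have 1 array in a group, which is assumed to vary like the other group. At an unadjusted p under 0.05 the genes higher numbered 114 to 1182 and those lower 259 (filter at the 60th percentile) to 5319 (no filter), against 322 and 1077 in the reported fit. The replicate numbers are shared by the groups, but nothing in the labels pairs the samples. Arrays of the same number deviated together (r = 0.423 across genes). With a replicate block 0 genes were called, 446 were higher and 900 lower unadjusted, and Smo had an adjusted p of 0.466. Signals close to the bottom of the scale limit Gli1, Gli3 and Hhip.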
